A study of Mus musculus with 19 samples.

Results

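A set of 9 genes of the senescence and cell-cycle arrest program was followed in the aged mouse hippocampus, with and without inhibition of 3 microRNAs. The 9 genes, out of 48709 in the count files, were Cdkn1a, Cdkn1b, Cdkn1c, Cdkn2a, Cdkn2b, Trp53, Mdm2, Lmnb1 and Glb1, and they were chosen by name and matched by Ensembl identifier. RNA came from the microdissected CA1 region of male C57BL/6J mice in 3 groups, and all mice had received lipid nanoparticles in the dorsal hippocampus. Young mice of 3 months (n = 6) and old control mice of 16.5 months (n = 6) were given control oligonucleotides, whereas old anti-miR-mix mice of 16.5 months (n = 7) were given a mixture of inhibitors of miR-181a-5p, of miR-146a-5p and of miR-148a-3p. Old control against young therefore addresses age, and old anti-miR-mix against old control addresses the inhibitors. Old anti-miR-mix against young combines both, since no young libraries with the inhibitors were analysed here. The tissue was dissected as a whole, so cells that took up the particles and cells that did not are measured together.

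Cell-cycle arrest is enforced by proteins that block cyclin-dependent kinases, the enzymes that drive a cell through division. The Cip/Kip family (Cdkn1a or p21, Cdkn1b or p27, Cdkn1c or p57) inhibits several of these kinases, and the INK4 family (among them p16Ink4a from Cdkn2a and p15Ink4b from Cdkn2b) inhibits those that partner with D-type cyclins. Trp53 encodes p53, which activates Cdkn1a after damage and is held down by the ubiquitin ligase Mdm2, itself a p53 target. Senescent cells are known to gain p21 or p16, to lose the nuclear envelope protein lamin B1 (Lmnb1) and to show lysosomal beta-galactosidase activity, which is encoded by Glb1. Most neurons of CA1 have left the cell cycle for good, so in this tissue dividing cells are mainly glial and vascular.

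The inhibitors are shown because they define the treatment. Mature sequences are those of RefSeq on GRCm38, with the seed (bases 2 to 8) in capitals. Inhibitor sequences are those listed by the study, with the bases that pair with the seed in capitals.
miR-146a-5p: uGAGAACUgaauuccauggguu
inhibitor of miR-146a-5p: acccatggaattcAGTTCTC
miR-148a-3p: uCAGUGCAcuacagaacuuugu
inhibitor of miR-148a-3p: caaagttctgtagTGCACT
miR-181a-5p: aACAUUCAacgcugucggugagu
inhibitor of miR-181a-5p: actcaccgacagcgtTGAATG

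The 3 microRNAs share no seed. miR-146a-5p is encoded on the minus strand at chr11:43374435-43374456, miR-148a-3p on the minus strand at chr6:51269829-51269850, and miR-181a-5p on the plus strand of chromosomes 1 and 2 at chr1:137966468-137966490 and chr2:38852741-38852763. Each inhibitor was a perfect complement to its microRNA over 20, 19 and 21 bases, respectively. It covered 7 seed bases of miR-146a-5p but 6 of miR-148a-3p and 6 of miR-181a-5p. Annotated 3′ untranslated regions of the 9 genes were searched on the transcript strand for the letters complementary to each seed. These were AGTTCTC for the miR-146a-5p seed, then TGCACTG for the miR-148a-3p seed, and lastly TGAATGT for the miR-181a-5p seed. None of the 9 genes, whose longest such regions ran from 264 to 3439 bases, held any of them. Shorter matches and other parts of the transcripts were not searched. Over 15420 tested coding genes, these letters occurred in the 3′ untranslated region of 12.4%, 14.9% and 18.0%, respectively.

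Libraries held between 26653511 and 38908947 reads assigned to genes. Markers of CA1 pyramidal neurons had reads in every library, with a summed level of 687 to 985 CPM (reads per gene relative to the scaled total of the library). Markers of CA3 pyramidal neurons summed to 267 to 330 CPM, those of thalamus to 74.4 to 111 CPM and those of dentate granule neurons to 44.9 to 111 CPM. These sums are over different genes and do not measure the purity of the dissection. The deposited log2 values carried a whole number from 1 to 4 for each library, termed processing group here, whose origin is not described. The libraries in processing group 3 were 2 of young, 3 of old anti-miR-mix and 0 of old control mice. Old control replicates 5 and 6 were far more alike than any other pair of libraries within a group, with a chi-square per degree of freedom of 2.18 against at least 6.1, and were kept as 2 libraries. The labels do not state whether they come from separate mice.

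Of the 9 genes, 8 reached 5 reads in no fewer than 50% of libraries and were tested, and Cdkn2a did not. None of the 8 genes passed an adjusted p of 0.05 in edgeR's quasi-likelihood test in any comparison. Among all 19286 genes tested, 2.67% were called in old control against young, 0.669% in old anti-miR-mix against old control and 6.2% in old anti-miR-mix against young. At an unadjusted p under 0.05 the counts were 2, 1 and 1 of the 8 genes, where 18.1%, 10.5% and 19.6% of all genes passed. DESeq2 called 1 of the 8 genes, Cdkn1a, in old control against young and 0 in the other comparisons, and limma voom called 0 in each. Over all genes in old control against young, DESeq2 called 914 where edgeR called 514. In every comparison the values of the groups overlapped for each of the 8 genes, while 2.54%, 0.498% and 2.42% of all genes had groups that did not overlap. In absolute size, the median log2 fold change of these 8 was 0.08, 0.05 and 0.10, beside 0.09, 0.07 and 0.08 over all genes tested.

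**Figure D1:**
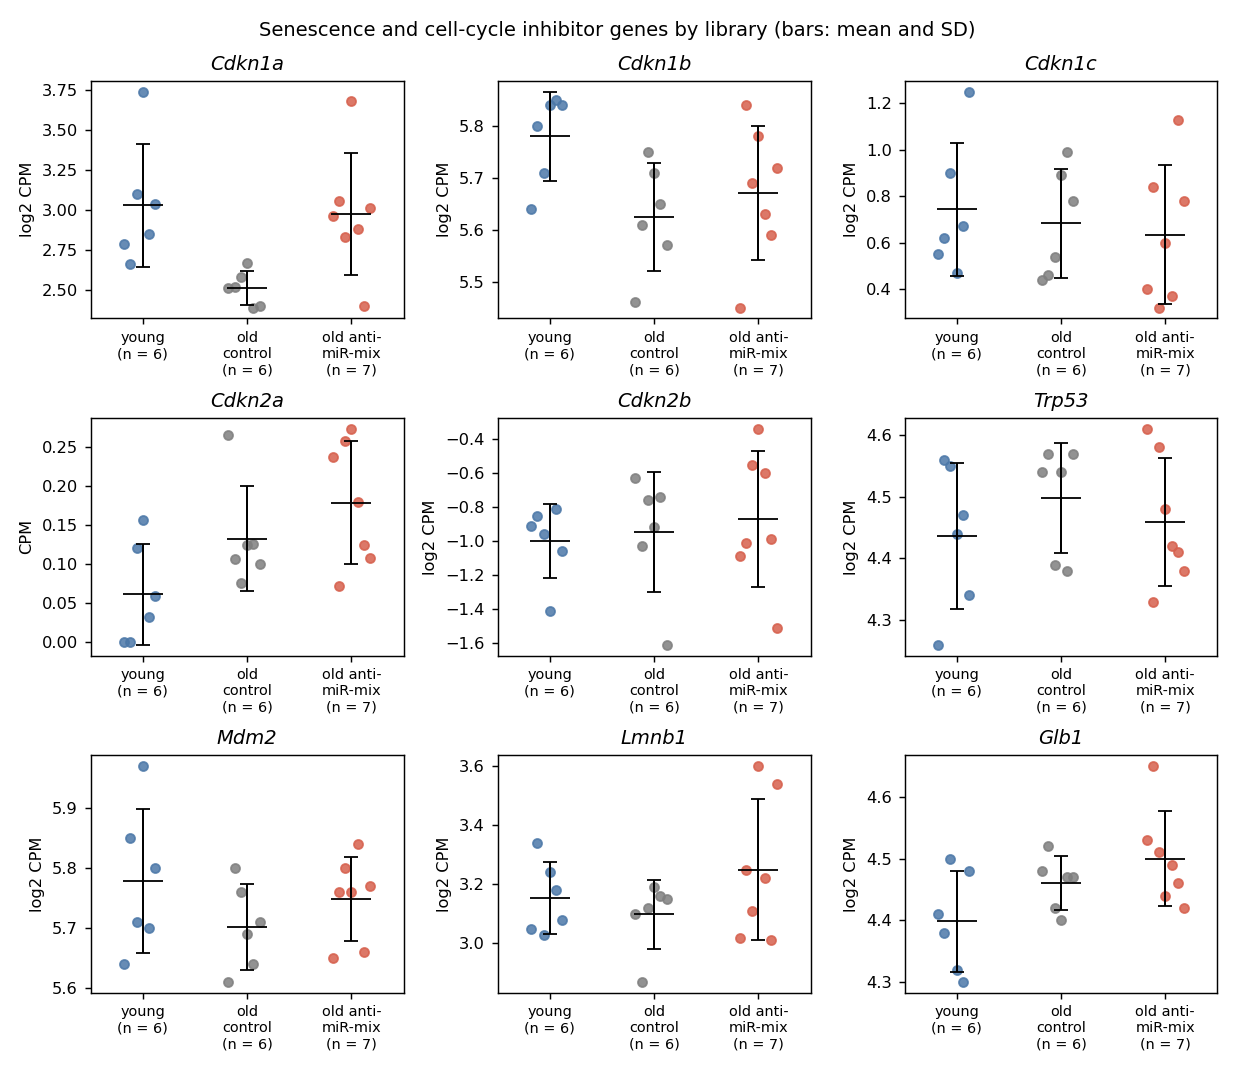
Each point is 1 library of the group named below it, and the bars give the mean and SD; the vertical axis is log2 CPM, or CPM for Cdkn2a. The Cdkn1a values of old control libraries lie between 2.39 and 2.67 and overlap the young values only at their upper end. For the other genes the groups overlap to differing degrees, and 3 of 6 old control libraries lie below the lowest young library for Cdkn1b.

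Levels of different genes were compared per length, as RPKM, the CPM of a gene divided by its exon length in kilobases. Over the 19 libraries, Cdkn1b was highest with a mean of 11.4 ± 0.946 RPKM (SD, n = 19), followed by Mdm2 with 10.5 ± 0.665 RPKM. These neighbours were close, and Cdkn1b exceeded Mdm2 in 16 of 19 libraries. Glb1 followed with 7.28 ± 0.399 RPKM, Trp53 with 5.45 ± 0.386 RPKM and Lmnb1 with 3.04 ± 0.397 RPKM. Lmnb1 exceeded Cdkn1a, at 2.08 ± 0.636 RPKM, in 18 of 19 libraries. The lowest levels were those of Cdkn1c (0.771 ± 0.155 RPKM), Cdkn2b (0.339 ± 0.0828 RPKM) and Cdkn2a (0.108 ± 0.0714 RPKM), and every library kept this order from Cdkn1a downward. Cdkn1a also varied most between libraries among the genes with over 100 reads in each, with an SD of 0.38 on the log2 CPM scale against 0.08 to 0.18 for Cdkn1b, Mdm2, Glb1, Trp53 and Lmnb1.

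Cdkn1a (ENSMUSG00000023067, GRCm38 chr17:29090976-29100727, plus strand), which encodes p21, showed the largest difference with age among the 8 genes, and the difference was toward lower levels in old mice. Young libraries had a lowest, median and highest log2 CPM of 2.66, 2.95 and 3.74, from 166 to 510 reads. In old control libraries these values were 2.39, 2.51 and 2.67, from 157 to 212 reads, and in old anti-miR-mix libraries 2.40, 2.96 and 3.68, from 166 to 421 reads. Thus 5 of 6 old control libraries lay below the lowest young library, and 6 of 7 old anti-miR-mix libraries lay above the highest old control library. The log2 fold change of old control against young was -0.57 (SE 0.18, 95% CI -0.94 to -0.21, edgeR adjusted p = 0.0834). The same test gave 0.51 for old anti-miR-mix against old control (SE 0.17, 95% CI 0.15 to 0.87, edgeR adjusted p = 0.245). Both comparisons use the same 6 old control libraries. Old anti-miR-mix and young libraries differed by -0.06 (SE 0.17, 95% CI -0.41 to 0.28, edgeR adjusted p = 0.888). In this bulk tissue, fewer cells that express a gene and less RNA per cell cannot be told apart.

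The call for Cdkn1a depended on the test. For old control against young, DESeq2 gave an adjusted p of 0.0287 with the same log2 fold change, and edgeR gave 0.0412 when only those groups were fitted and 0.0372 without old anti-miR-mix replicate 4. Without young replicate 4 the log2 fold change was -0.39 (edgeR adjusted p = 0.24), and with processing group as a factor it was -0.42 (edgeR adjusted p = 0.187). With old control replicates 5 and 6 as 1 library it was -0.56 (edgeR adjusted p = 0.142). For old anti-miR-mix against old control, the log2 fold change was 0.29 with processing group as a factor (edgeR adjusted p = 0.764) and 0.36 without old anti-miR-mix replicate 4 (edgeR adjusted p = 0.566).

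The highest libraries, young replicate 4 at 13.3 CPM and old anti-miR-mix replicate 4 at 12.8 CPM, were both in processing group 3, where no old control library was available. Mean log2 CPM (young, then old control, then old anti-miR-mix) was 2.79, 2.51 and 2.96 in processing group 1, 2.66, 2.63 and 3.04 in processing group 2, and 2.95, 2.39 and 2.40 in processing group 4, with 1 or 2 libraries behind each mean. Old control was thus lowest in each of these 3 groups, although it differed from old anti-miR-mix by only 0.01 in processing group 4 and from young by only 0.03 in processing group 2. The fit with processing group as a factor, given above, compares the groups within processing groups, and neither difference passed in it.

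Markers of oligodendrocytes, the myelinating glia, moved in the same direction as Cdkn1a. The summed level of 6 markers ranged from 7090 to 11200 CPM in young, from 6270 to 7450 CPM in old control and from 6380 to 9410 CPM in old anti-miR-mix libraries, and none was at 0 in any library. With age 4 of the 6 markers fell, among them Mog by 0.55 on the log2 scale (edgeR adjusted p = 0.00397), beside 1.34% of all genes. With the inhibitors the 6 markers had log2 fold changes of 0.23 to 0.28 (edgeR adjusted p = 0.257 to 0.463). Young replicate 4 ranked first of 19 libraries both for Cdkn1a and for this sum, and old anti-miR-mix replicate 4 ranked 2 and 4. At the other end, old control replicates 5 and 6 and old anti-miR-mix replicate 6 held the 3 lowest Cdkn1a levels and sums of 6400, 6460 and 6380 CPM. Other libraries ranked differently for Cdkn1a and for the sum. Young replicate 5 ranked 9 and 2, young replicate 6 ranked 5 and 14, and old anti-miR-mix replicate 5 ranked 8 and 15. Old control replicate 1, with the lowest sum of 6270 CPM, ranked 16 for Cdkn1a. The part of oligodendrocyte content in the Cdkn1a difference was not tested.

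**Figure D2:**
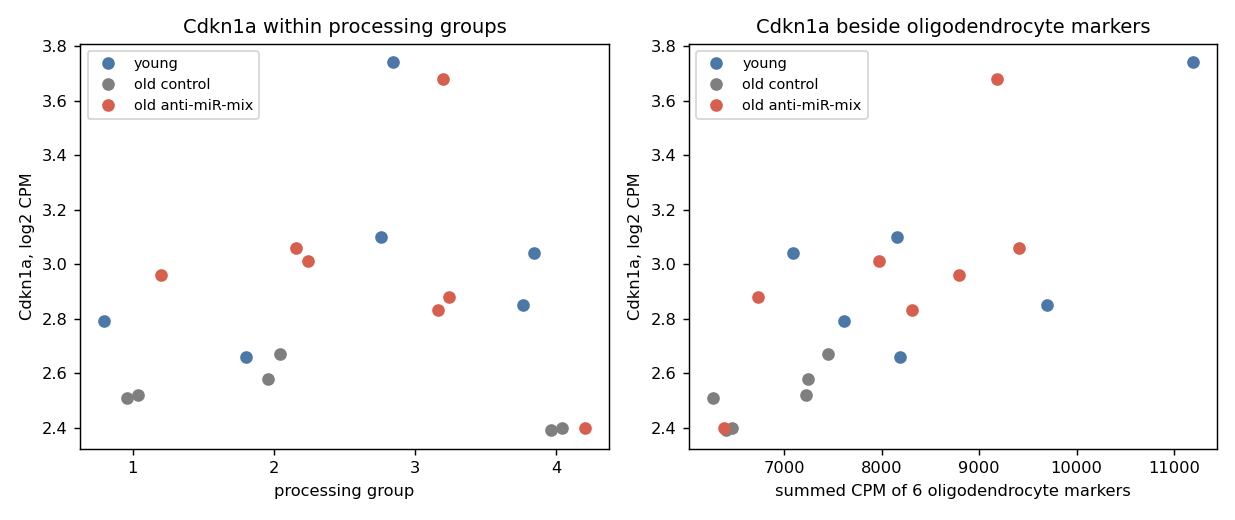
Left, log2 CPM of Cdkn1a in each library by processing group; right, the same values against the summed CPM of 6 oligodendrocyte markers, with 1 point for each of 19 libraries colored by group. The highest Cdkn1a values, 3.74 in a young and 3.68 in an old anti-miR-mix library, are in processing group 3, and old control libraries sit at the lower left of the right panel.

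Cdkn1b (ENSMUSG00000003031, chr6:134920401-134925513, plus strand), which encodes p27, had a log2 CPM of 5.64, 5.82 and 5.85 (lowest, median and highest) in young libraries. In old control libraries it was 5.46, 5.63 and 5.75, and in old anti-miR-mix libraries 5.45, 5.69 and 5.84. Values of the old control libraries were all below the young median, but the groups overlapped. The log2 fold change with age was -0.16 (SE 0.06, 95% CI -0.28 to -0.04, unadjusted p = 0.0139, edgeR adjusted p = 0.154). Between old anti-miR-mix and old control it was 0.05 (95% CI -0.07 to 0.17, edgeR adjusted p = 0.832). With 1287 to 2207 reads per library these intervals are narrow, and as a ratio of old control to young the interval ran from 0.824 to 0.976.

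Cdkn1c (ENSMUSG00000037664, chr7:143458339-143461050, minus strand), the imprinted gene for p57, was read at 37 to 78 reads per library. Its median log2 CPM was 0.64 in young (0.47 to 1.25), 0.66 in old control (0.44 to 0.99) and 0.60 in old anti-miR-mix libraries (0.32 to 1.13). The log2 fold change was -0.07 with age (95% CI -0.42 to 0.27) and -0.05 with the inhibitors (95% CI -0.38 to 0.29), so the groups differed by less than the spread between libraries. The annotation places 625 exonic bases of Cdkn1c opposite Gm44732, which had 0 reads in these libraries.

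The INK4 genes lie next to each other on the minus strand of chromosome 4. Cdkn2a (ENSMUSG00000044303, chr4:89274471-89294653) encodes p16Ink4a and, in another reading frame, p19Arf, and both transcripts are counted under 1 gene in these files. It was at the limit of detection. Young libraries held 0, 0, 4, 6, 1 and 2 reads, old control libraries 10, 3, 2, 4, 4 and 3 reads, and old anti-miR-mix libraries 7, 2, 10, 9, 6, 4 and 3 reads, in order of replicate number. A count of 0 allows up to 3 reads, and 4 of 6 young, 3 of 6 old control and 2 of 7 old anti-miR-mix libraries held 3 or fewer. Mean levels were 0.0612 ± 0.0645 CPM for young, 0.133 ± 0.0673 CPM for old control and 0.179 ± 0.0793 CPM for anti-miR-mix mice (SD, n = 6, 6 and 7).

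These differences were tested with a two-sided exact permutation test of mean CPM over libraries, adjusted over the 3 comparisons. The p-value was 0.0866 for old control against young (adjusted 0.13), 0.286 for old anti-miR-mix against old control (adjusted 0.286) and 0.0175 for old anti-miR-mix against young (adjusted 0.0525), by exact permutation. When single libraries were left out, old control against young gave 0.0238 to 0.177 in the exact permutation test, without adjustment. The lowest value was without young replicate 4, which with 6 reads was the highest of its group, so its removal widens the difference. The highest value was without young replicate 1 or 2. Young libraries in processing groups 1 and 2 held 0 reads, while both young libraries in processing group 3 held 4 and 6 reads. Within each processing group that held both, the mean level of old control libraries was above that of young libraries. Each mean rests on 1 or 2 libraries. The young mean came from 1 library in processing groups 1 and 2 and from libraries of 1 and 2 reads in processing group 4.

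Cdkn2b (ENSMUSG00000073802, chr4:89306299-89311039), which encodes p15Ink4b, was covered by 8 to 24 reads per library. Young libraries held 12 to 16 reads, old control libraries 8 to 22 and old anti-miR-mix libraries 8 to 24. The ranges lay inside each other, and the log2 fold change was 0.10 with age (95% CI -0.36 to 0.56), 0.11 with the inhibitors (95% CI -0.32 to 0.55) and 0.22 for old anti-miR-mix against young (95% CI -0.22 to 0.65). With age the interval extended 0.46 to each side of the estimate, the widest of the 8 genes.

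Trp53 (ENSMUSG00000059552, chr11:69580359-69591873, plus strand) varied little between libraries. Its log2 CPM was 4.44 ± 0.12 for young, 4.50 ± 0.09 for old control and 4.46 ± 0.10 for anti-miR-mix mice (SD, n = 6, 6 and 7), with 530 to 928 reads per library. The lowest, median and highest values were 4.26, 4.46 and 4.56 in young, 4.38, 4.54 and 4.57 in old control and 4.33, 4.42 and 4.61 in old anti-miR-mix libraries. No group stood apart. Log2 fold changes were 0.06 with age (95% CI -0.06 to 0.19), -0.04 with the inhibitors (95% CI -0.16 to 0.08) and 0.02 for old anti-miR-mix against young (95% CI -0.10 to 0.14).

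Mdm2 (ENSMUSG00000020184, chr10:117688875-117710758, minus strand) had a log2 CPM of 5.64, 5.76 and 5.97 (lowest, median and highest) in young, 5.61, 5.70 and 5.80 in old control and 5.65, 5.76 and 5.84 in old anti-miR-mix libraries. The old control values extended slightly lower and the young values higher. The log2 fold change was -0.08 with age (SE 0.05, 95% CI -0.18 to 0.02, edgeR adjusted p = 0.428) and 0.05 with the inhibitors (SE 0.05, 95% CI -0.05 to 0.15, edgeR adjusted p = 0.796). Across the 19 libraries Cdkn1a and Mdm2, both direct p53 targets, had a Pearson correlation of 0.54, or 0.45 after group means were removed, within a range of -0.38 to 0.58 over all pairs of the 8 genes. This is a description only, as the libraries share groups and processing groups.

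Lmnb1 (ENSMUSG00000024590, plus strand of chromosome 18, 56707813 to 56753424), for lamin B1, had a log2 CPM of 3.03, 3.13 and 3.34 (lowest, median and highest) in young and 2.87, 3.13 and 3.19 in old control libraries. Old anti-miR-mix libraries spread more widely, at 3.01, 3.22 and 3.60, and 4 of 7 lay above the highest old control library. The log2 fold change was -0.05 with age (SE 0.10, 95% CI -0.26 to 0.15, edgeR adjusted p = 0.823), which does not include a loss of lamin B1 transcript below 0.837 of the young level. It was 0.16 with the inhibitors (SE 0.09, 95% CI -0.03 to 0.36, edgeR adjusted p = 0.566).

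Glb1 (ENSMUSG00000045594, chr9:114401076-114474898, plus strand), for lysosomal beta-galactosidase, had a median log2 CPM of 4.40 in young libraries (4.30 to 4.50), 4.47 in old control libraries (4.40 to 4.52) and 4.49 in old anti-miR-mix libraries (4.42 to 4.65). All 6 old control and all 7 old anti-miR-mix libraries lay above the young median, yet the ranges overlapped. Log2 fold changes were 0.06 with age (95% CI -0.04 to 0.15), 0.04 with the inhibitors (95% CI -0.05 to 0.13) and 0.10 for old anti-miR-mix against young (95% CI 0.01 to 0.19, unadjusted p = 0.0315, edgeR adjusted p = 0.197). The annotation shares 165 exonic bases between Glb1 and Tmppe on the same strand, and how reads there were assigned is not given in the sources used here.

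**Figure D3:**
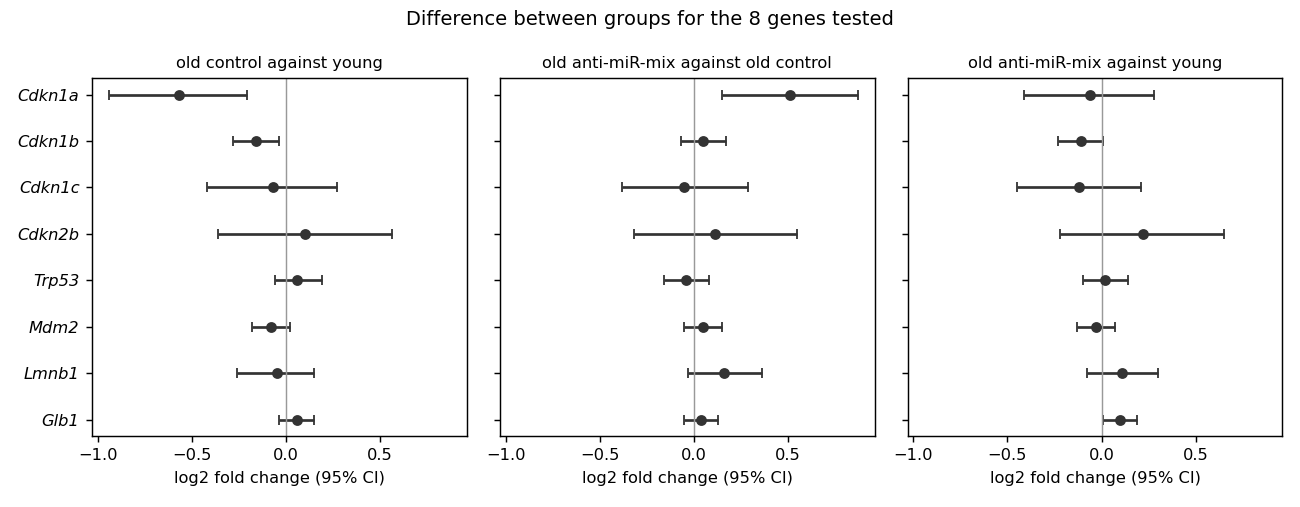
Points give the log2 fold change of the 8 tested genes and bars the 95% confidence interval from edgeR, in 1 panel for each comparison. Cdkn1a is farthest from 0 in the first and second panels (-0.57 and 0.51) and near 0 in the third (-0.06), and Cdkn2b has the widest intervals.

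The genes around these members were read from the same fit. Lists of 171 genes held 163 tested genes, of which 8 (4.91%) were called in old control against young, 11 (6.75%) in old anti-miR-mix against old control and 26 (16.0%) in old anti-miR-mix against young, against 2.67%, 0.669% and 6.2% of all genes. All 11 calls with the inhibitors were lysosomal (6) or secretory (5) genes.

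Among 31 tested p53 target genes, 2 rose and 1 fell with age (9.68%, beside 2.67% of all genes called in either direction). Rrm2b, a ribonucleotide reductase subunit used in DNA repair, rose by a log2 fold change of 0.18 (SE 0.04, edgeR adjusted p = 0.0288), and Xpc, a DNA damage sensor, by 0.19 (SE 0.05, edgeR adjusted p = 0.0399). Sesn1, a stress-induced inhibitor of mTORC1, fell by 0.16 (SE 0.04, edgeR adjusted p = 0.0408). DESeq2 called 7 of the 31 with age, among them Eda2r (DESeq2 adjusted p = 0.0221, edgeR adjusted p = 0.0548). Over all genes DESeq2 also called more with age, 914 against 514 in edgeR. The 31 genes had a median of -0.03 with 14 of 31 positive. Each of the 3 calls was lost when 1 of several libraries was left out, young replicate 4 and old control replicate 2 among them. With the inhibitors 0 of 31 were called, with 7 at an unadjusted p under 0.05 in edgeR, 0 calls by DESeq2 and 25 of 31 positive. With processing group as a factor, 19 of 31 were positive for the inhibitors, with a median of 0.07 beside 0.08. Against young, 3 genes rose in old anti-miR-mix libraries (9.68%, beside 6.2% of all genes called in either direction). These were Tap1, a peptide transporter of antigen presentation (0.79, SE 0.16, edgeR adjusted p = 0.00429), the epoxide hydrolase Ephx1 (0.30, SE 0.06, edgeR adjusted p = 0.00544) and the receptor Eda2r (0.89, SE 0.20, edgeR adjusted p = 0.00942). The log2 CPM of Eda2r was -0.50 ± 0.42 for young, 0.25 ± 0.37 for old control and 0.37 ± 0.27 for anti-miR-mix mice (SD, n = 6, 6 and 7).

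Of 16 regulators and relatives of p53, 0 were called in any comparison by edgeR, with 3, 3 and 2 at an unadjusted p under 0.05, and DESeq2 called 1 in old anti-miR-mix against young. The smallest p-values were those of Chek2, a DNA damage kinase (log2 fold change 0.48 with the inhibitors, edgeR adjusted p = 0.156), and Trp53bp1, a repair scaffold (-0.10 for old anti-miR-mix against young, edgeR adjusted p = 0.0752). A further 5 genes with Cdkn symbols were Cdkn2c, Cdkn2d, Cdkn3, Cdkn2aip and Cdkn2aipnl, not all of which encode kinase inhibitors. These 5 likewise gave 0 calls in edgeR, with 2, 2 and 0 at an unadjusted p under 0.05. DESeq2 called 1 of them with age, Cdkn2aipnl. Cdkn2c, for p18Ink4c, had a log2 CPM of 1.24 ± 0.24 for young, 0.87 ± 0.19 for old control and 1.21 ± 0.28 for anti-miR-mix mice (SD, n = 6, 6 and 7), with an edgeR adjusted p of 0.144 and 0.316 for age and the inhibitors. Cdkn2aipnl differed by 0.12 with age (edgeR adjusted p = 0.0556, DESeq2 adjusted p = 0.0373).

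Cyclins, their kinases, retinoblastoma and E2F genes (23 tested) gave 0 calls in each comparison by edgeR and by DESeq2, with 6, 5 and 3 at an unadjusted p under 0.05. The median log2 fold change was -0.10 with age, with 5 of 23 positive, and 0.055 with the inhibitors, with 19 of 23 positive. With processing group as a factor the medians were -0.10 and 0.02, with 5 and 14 of 23 positive. Leaving out single libraries gave at most 1 call in this list and among the further Cdkn genes above. E2f2, an activating E2F, stood at 0.10 ± 0.12 log2 CPM for young, -0.40 ± 0.39 for old control and 0.25 ± 0.36 for anti-miR-mix mice (SD, n = 6, 6 and 7), and Rbl1, for p107, differed by 0.37 with the inhibitors (edgeR adjusted p = 0.198).

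Proliferation markers (19 tested) showed the same arrangement with larger values. With age 2 of them fell, Aurkb, the mitotic kinase Aurora B, by 1.45 on the log2 scale (SE 0.33, edgeR adjusted p = 0.0244) and Cenpf, a centromere protein, by 0.68 (SE 0.16, edgeR adjusted p = 0.0302), beside 1.34% of all genes that were lower. The median of the 19 was -0.30, beside 0.006 over all genes, with 2 of 19 positive. With the inhibitors the median was 0.34, beside 0 over all genes, and 19 of 19 were positive, but 0 passed in edgeR, with 8 at an unadjusted p under 0.05, and 1 passed in DESeq2. The old control libraries enter both comparisons, and against young the old anti-miR-mix median was 0.03. With processing group as a factor the medians were -0.17 and 0.17, and 0 of 19 passed in either comparison. With age 4 passed without old anti-miR-mix replicate 4, and neither call held without young replicate 4, without old control replicate 1 or without old control replicate 6. Aurkb had as few as 2 reads in a library. Markers of oligodendrocyte precursors, which can divide, summed to 215 to 241 CPM in young, 182 to 203 CPM in old control and 189 to 218 CPM in old anti-miR-mix libraries, and none was at 0. Their part in these values was not tested.

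Among 11 lamins, nuclear envelope and high mobility group genes, 0 passed in either comparison with old control in edgeR, with 2 and 1 at an unadjusted p under 0.05, and DESeq2 called 1 with age and 0 with the inhibitors. Sun2, a nuclear envelope protein that links the lamina to the cytoskeleton, rose in old anti-miR-mix against young by 0.18 (SE 0.05, edgeR adjusted p = 0.0193).

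Lysosomal genes other than Glb1 (18 tested) gave 2 higher calls with age, 6 with the inhibitors and 9 in old anti-miR-mix against young, and no lower ones, where 1.32%, 0.669% and 4.57% of all genes were called higher and 1.34%, 0% and 1.63% lower. Gusb, beta-glucuronidase, had a log2 CPM of 4.09 ± 0.07 for young, 4.10 ± 0.14 for old control and 4.48 ± 0.14 for anti-miR-mix mice (SD, n = 6, 6 and 7). It thus rose with the inhibitors, with a log2 fold change of 0.38 (SE 0.07, edgeR adjusted p = 0.0115), and was level between the control groups. The glycosidase Hexa (0.27, SE 0.05, edgeR adjusted p = 0.024), the mannosidase Man2b1 (0.22, SE 0.04, edgeR adjusted p = 0.0237) and Ctsa, the protective protein that forms a complex with beta-galactosidase (0.21, SE 0.04, edgeR adjusted p = 0.0254), rose as well. Gm2a, a lysosomal glycolipid transfer protein, passed against young (0.22, edgeR adjusted p = 0.0011). For the inhibitors its edgeR adjusted p was 0.0572 and that of DESeq2 0.0122. Over all genes, no fit called more than 267 in that comparison, and DESeq2 called 8 of the 18 lysosomal genes. Glb1 itself, at 0.04, was outside this set. With processing group as a factor 0 of 18 passed for the inhibitors, and the median was 0.11 beside 0.12, while 9 of 18 passed against young. With old control replicates 5 and 6 as 1 library, 1 of 18 passed for the inhibitors. Leaving out single libraries gave between 1 and 8 calls for the inhibitors, with 1 call without old control replicate 1, 2 or 5 or without old anti-miR-mix replicate 2, 3 or 4, 2 calls without old control replicate 6 and 3 without old anti-miR-mix replicate 5. For age it gave 0 to 2 calls, and against young at least 9.

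Of 46 listed genes of the senescence-associated secretory phenotype, the cytokines, proteases and growth factors released by senescent cells, 40 were tested. With age 1 rose, with the inhibitors 5 rose and against young 13 rose, with no lower calls. These are 2.5%, 12.5% and 32.5% of the 40, beside 2.67%, 0.669% and 6.2% of all genes called in either direction. The share with age is thus near that of all genes. Spp1, osteopontin, stood at 3.60 ± 0.72 log2 CPM for young, 3.67 ± 0.96 for old control and 5.72 ± 0.67 for anti-miR-mix mice (SD, n = 6, 6 and 7), a log2 fold change of 1.94 with the inhibitors (SE 0.38, edgeR adjusted p = 0.0221). The protease Plau (0.89, SE 0.16, edgeR adjusted p = 0.0156), the cytokine Tgfb1 (0.54, SE 0.11, edgeR adjusted p = 0.027) and the chemokine Ccl3 (1.49, SE 0.34, edgeR adjusted p = 0.0439) rose as well. The metalloprotease Mmp12 (2.84, SE 0.45, edgeR adjusted p = 0.000399) and the growth factor Csf1 (0.54, SE 0.10, edgeR adjusted p = 0.00124) rose against young. Mmp12 had only 0 to 54 reads per library, and its young mean log2 CPM of -2.4 (SD 1.08) was near the floor, so the size of its change is uncertain. For the inhibitors 0 of 40 passed with processing group as a factor, and between 1 and 8 when single libraries were left out, with 1 call without old control replicate 2 and 2 calls without old control replicate 1, 5 or 6 or without old anti-miR-mix replicate 4. Without old anti-miR-mix replicate 2, 3 or 5 there were 3 calls, and without replicate 6 there were 8. With old control replicates 5 and 6 as 1 library, 2 of 40 passed for the inhibitors. Many of these genes are expressed by microglia, the resident immune cells. The 6 microglial markers summed to 248 to 316 CPM in young, 309 to 362 CPM in old control and 352 to 460 CPM in old anti-miR-mix libraries, and none was at 0. Of the 6, 1, 2 and 5 were called in the 3 comparisons, beside 2.67%, 0.669% and 6.2% of all genes. Their part in the lysosomal and secretory values was not tested.

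**Figure D4:**
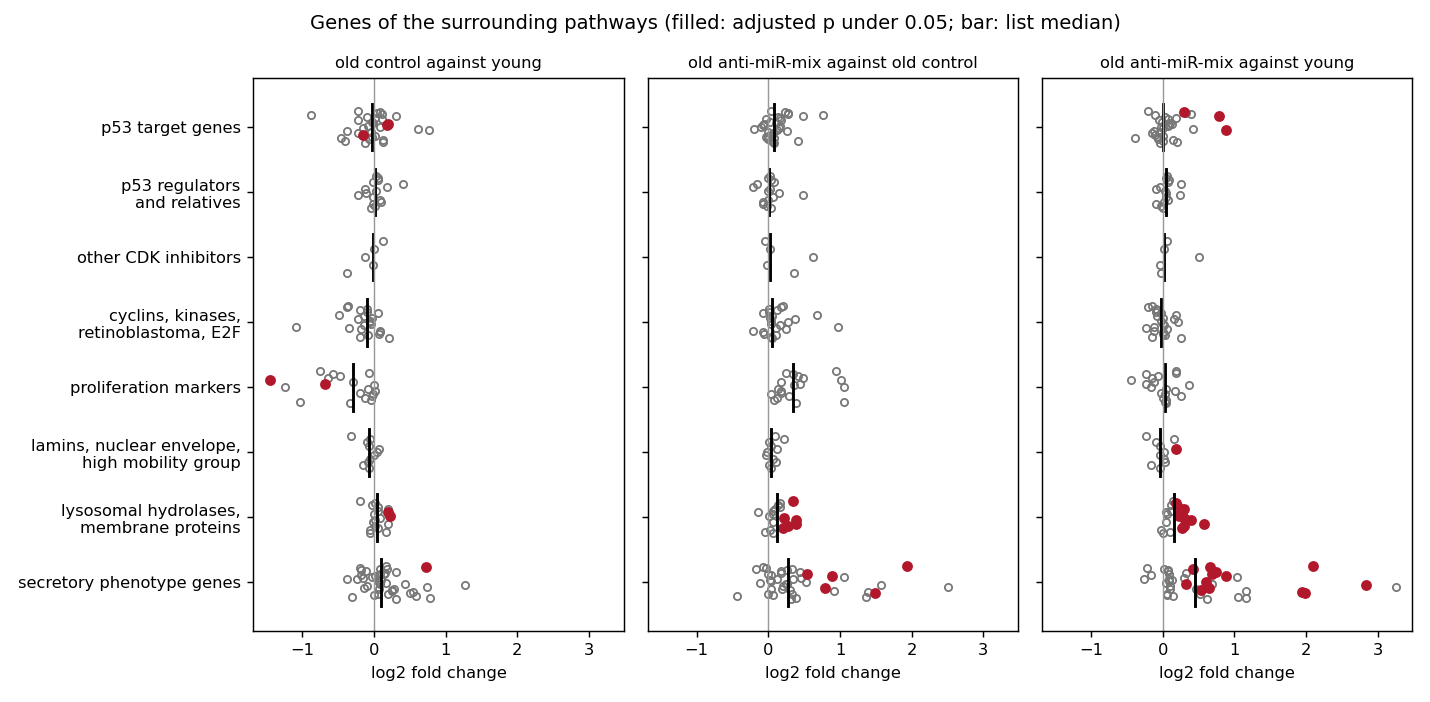
Each point is the log2 fold change of 1 tested gene in its list, filled where the edgeR adjusted p is under 0.05, with a bar at the list median; the panels are the 3 comparisons. Proliferation markers lie left of 0 with age (median -0.30) and right of 0 with the inhibitors (median 0.34), and filled points are most frequent among lysosomal and secretory genes of old anti-miR-mix libraries.

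For each tested member, the genes whose log2 CPM was most like it over the 19 libraries were listed by Pearson correlation, among 13671 or 13672 genes. These values describe the libraries, which share depth, groups and processing groups. Cdkn1a was most like Cln8 (0.88), Phlda3 (0.86) and Spsb1 (0.86), and the correlations were 0.81, 0.80 and 0.78 after group means were removed. Cln8 fell with age by 0.16 on the log2 scale (SE 0.04, edgeR adjusted p = 0.0425). Phlda3, also a listed p53 target, differed by -0.38 with age (SE 0.12, edgeR adjusted p = 0.0822) and by 0.26 with the inhibitors (SE 0.11, edgeR adjusted p = 0.41).

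Cdkn1b was most like Rdx (0.91), Fam107b (0.88) and Zfp420 (0.88), and Cdkn1c most like Arhgap42 (0.85), Slc2a12 (0.80) and Bmp3 (0.79). Trp53 was most like Actb (0.84), Sez6l2 (0.83) and Dnajc14 (0.80), and Mdm2 most like Ipmk (0.86), Nr4a3 (0.85) and Ppp1r15b (0.84). Lmnb1 was most like Itga5 (0.79), Emp1 (0.78) and Btg1 (0.78). The lowest correlations were those of the leading genes for Glb1, namely Pisd (0.74), Pisd-ps1 (0.73) and Pisd-ps2 (0.73), and for Cdkn2b, namely Pex2 (0.72), H2-M3 (0.70) and Hps3 (0.68). After group means were removed, the correlations of Pisd, Pisd-ps1 and Pisd-ps2 with Glb1 were 0.69, 0.63 and 0.63. These 3 genes rose with age (log2 fold changes 0.45, 0.79 and 0.75, edgeR adjusted p = 0.00235, 0.0243 and 0.0162). Pisd and its pseudogenes share sequence, and their counts are uncertain.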

How the data were processed

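CA1 RNA of 19 libraries was analysed, with groups taken from the descriptions in the labels, since titles of young and old control libraries also begin with the name of the experiment. The authors sequenced polyadenylated RNA as single-end reads, aligned them to mm10 with STAR 2.5.2b and counted reads per gene with featureCounts (Subread 1.5.1). The deposited files hold raw counts per Ensembl gene and a table of log2 values, which equalled log2(CPM + 1) minus a gene-specific slope times a number from 1 to 4 per library and served only to read those numbers. Strand and multi-mapping settings are not given in the sources used here. The 19286 genes that reached 5 reads in no fewer than 50% of libraries were scaled by TMM and tested with edgeR 4.0.16 (R 4.3.3, quasi-likelihood test, all 3 groups in 1 fit, Benjamini-Hochberg over all genes, threshold 0.05), after the script was tested on simulated data. Log2 CPM used a prior count of 2. DESeq2 1.42.0 and limma 3.58.1 were alternatives. Annotation was GENCODE M21 (GRCm38). Named genes were the members, up to 6 called genes of each list by adjusted p (where none passed, the 2 with the smallest p), and the 3 genes most correlated with each tested member. A gene that this rule names in the lysosomal list is not reported here. Members, pathway lists and marker lists were chosen with earlier results of these data known. Labels number the libraries within groups, so p-values measure the spread between these libraries.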

Additional observations from a re-analysis of the deposited data

Results flagged for a closer look

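Outliers were sought with Dixon's test in each of 27 sets (9 genes in 3 groups), and chance alone marks about 1 in 20 sets. In 2 sets a library stood apart. Cdkn2a in old control replicate 1 had a log2 CPM of -1.61, from 10 reads, while the other old control libraries lay between -2.85 and -2.40. Without it the exact permutation test of old control against young gave 0.167. Lmnb1 in old control replicate 2 had a log2 CPM of 2.87, while the others lay between 3.10 and 3.19.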

How the results depend on the processing

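Of the 8 tested genes, 1 passed for old control against young under DESeq2, with only the groups compared and with replicate number as a block, in each case Cdkn1a (log2 fold changes -0.57, -0.58 and -0.54, adjusted p 0.0287, 0.0412 and 0.0284 in DESeq2, edgeR and edgeR). When single libraries were left out the count was 0 to 1. Replicate numbers did not pair the libraries: correlations of same-numbered deviations ran from -0.17 to 0.21, and 4 of 19 libraries correlated best with their own number. The block changed no other call of a member. It gave 249 genes in place of 129 for the inhibitors over all genes, and 12, 16 and 28 listed pathway genes. In the other 2 comparisons 0 members passed under every alternative. Log2 fold changes changed sign only near 0. For the inhibitors, processing group as a factor gave 0.038 (Cdkn1c), -0.022 (Cdkn2b) and -0.0041 (Mdm2), and this factor with old control replicates 5 and 6 as 1 library gave 0.030, -0.044 and -0.0048. Processing group as a linear term gave 0.0029 for Cdkn1c with age. Old anti-miR-mix against young gave 0.0036 for Mdm2 without young replicate 4 and old anti-miR-mix replicate 4. This pair and the combined factor were chosen after the values were seen. With single libraries left out, Cdkn1c ranged from -0.13 to 0.055 with age, from -0.15 to 0.019 with the inhibitors and from -0.22 to 0.0049 against young, and Cdkn2b from -0.0063 to 0.20 with the inhibitors. Against young, Cdkn1a ranged from -0.22 to 0.12, Trp53 from -0.0096 to 0.052 and Mdm2 from -0.056 to 0.012. Cdkn2b could not be fitted with a minimum mean of 20 reads.

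The 8 pathway genes called with age became 15 in DESeq2, 3 without the filter, 16 with only the groups compared, 4 with processing group as a factor, 4 with it as a linear term, 3 with replicates 5 and 6 as 1, 3 without both replicates numbered 4 and 1 with the combined factor, and 2 to 11 when single libraries were left out. The 11 called with the inhibitors became 5 with only the groups compared, 0 with the factor, 3 with replicates 5 and 6 as 1, 3 without both replicates numbered 4 and 0 with the combined factor, and 2 to 17 when single libraries were left out. The 26 against young stayed between 22 and 31. Over all genes, 514 with age ranged from 212 to 914, 129 with the inhibitors from 6 to 267 and 1196 against young from 762 to 1520, the lowest counts being without young replicate 4, with the combined factor and without both replicates numbered 4. The cause of these changes was not tested. The Cdkn2a difference ranged from 0.045 to 0.0904 CPM with age, from 0.0305 to 0.0726 with the inhibitors and from 0.102 to 0.137 against young when single libraries were left out. Cdkn2a and Cdkn2b, with at most 10 and 24 reads, are limited by depth.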
